A study of Mus musculus with 96 samples.

Results

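SOX2 binding was compared between 8 h and 48 h of doxycycline (Dox) over all 42403 GATA6 binding regions of the study, to see where the protein was lost or gained while GATA6 was induced. It uses ChIP-seq, which sequences the DNA that an antibody pulls down together with the protein fixed to it. The SOX2 libraries of 8 h, 16 h, 24 h and 48 h were 8 of the 96 libraries of the series, with 2 at each time. The cells were KH2 mouse embryonic stem (ES) cells of C57BL/6 x 129/Sv background with a doxycycline-inducible gata6 expression cassette, treated with 1 µg/mL Dox. The groups of 8 h to 48 h all carried the cassette and received Dox, and the labels set them apart by time with Dox. They were grown with LIF and serum on fibroblast feeders that were removed before fixation. SOX2 libraries of these cells from before Dox, which received none, and from 96 h with Dox are used as context. The inducible cells were derived as 2 clones and the sources used here do not tie a clone to a library. The libraries were made from bulk cells, in which fewer cells with SOX2 at a region and less SOX2 per cell cannot be told apart.

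SOX2 is a DNA-binding protein of the high mobility group (HMG) box family that keeps ES cells pluripotent, most often together with OCT4, a POU protein. The pair binds a composite DNA element in which a SOX element of the TTGT type stands next to a POU element of the ATGC type, and in the canonical form 1 base lies between them. SOX17, an HMG box protein of the primitive endoderm (PrE), the first endoderm of the embryo, is known to pair with OCT4 on a compressed form that lacks this base.

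The stretches below show both forms in regions whose SOX2 signal changed. They were chosen after the values were seen, among the regions of the largest change that reached 2 RPM (reads scaled to the library size) and held the letters within 100 bases of the GATA6 summit. Capitals mark the composite element, read 5′ to 3′ from the mm10 genome. The compressed form stood in 4 regions that gained SOX2.
Region nearest Arhgap29, chr3:121940414-121940441, minus strand: gacatagctaTTGTATGCatggactcac
Region nearest Jam3, chr9:27172396-27172423, minus strand: agaaagataaTTGTATGCtaaacacgca
Region nearest Btbd3, chr2:137721936-137721963, minus strand: caccctgccaTTGTATGCggccccagga
Region nearest AL731706.2, chr2:136855259-136855286, minus strand: taaatagccaTTGTATGCagtctgatag
The canonical form, with 1 more base, stood in 3 regions shown here that lost SOX2.
Region nearest Dhx35, chr2:159012974-159013002, plus strand: agggtggtctTTGTCATGCatttttgggt
Region nearest Dpp6, chr5:26692250-26692278, plus strand: cgtctgactaTTGTGATGCtgacagtagg
Region nearest Sestd1, chr2:77333647-77333675, minus strand: tcaatggtgaTTGTCATGCatcttagtcc

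The table gives a single SOX2 value per region and time, the mean of 2 libraries in RPM. Each value could be split back into whole reads of both libraries in all regions but 2, which left 42401 regions with a value in every library. The deeper library of a time is called A and the other B, since nothing ties them to a replicate number. Libraries A and B held 15302260 and 10168904 reads at 8 h, 13381927 and 11053446 at 16 h, 22413558 and 7183431 at 24 h, and 17717021 and 16665652 at 48 h. Both libraries of 8 h were alike, with a correlation of log2 signal across regions of 0.94, and so were those of 48 h, with 0.93. The libraries of 16 h (0.87) and 24 h (0.81) were further apart. Among regions of at least 2 RPM, 18.0% differed over 2-fold between the libraries of 16 h and 17.7% between those of 24 h, against 0.83% at 8 h and 0.946% at 48 h. The split sought whole counts of at least 1, and the lowest it gave was 1 in every library. The sources used here do not say whether 1 read had been added to each count. A count of 1 lies close to background.

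SOX2 fell at one set of regions and rose at another. The median log2 change from 8 h to 48 h was -0.07 over all regions, with a spread between library medians of 0.15 (SD, 2 libraries per time), and -0.29 over the 23029 regions that reached 1 RPM at either time. The regions took 7.55% and 8.63% of the reads of libraries A and B at 8 h and 6.46% and 7.18% at 48 h. On the combined values, 3290 regions rose at least 2-fold, a background of 7.76%, and 4709 fell at least 2-fold, 11.1%. In the libraries, limma with Benjamini-Hochberg adjustment over all regions called 1857 rises (4.38%) and 2468 falls (5.82%) at an adjusted p under 0.05, and left 38076 regions without a call. In all of the called regions, both libraries of 48 h lay on the same side of both libraries of 8 h. The smallest called log2 change was 1.11 at the rises and 1.10 in size at the falls. The calls came from these same libraries, so this adds no separate support, and the share over all regions was not counted. The median log2 change was 1.59 at the rises, with a median standard error of 0.41, and -1.51 at the falls, also with 0.41. Leaving out a library of 8 h or 48 h leaves its time with 1 library, assumed to vary like the others. This cut the rises to 277, 116, 545 and 31 and the falls to 132, 24, 266 and 32 without 8 h A, 8 h B, 48 h A and 48 h B. With only the libraries of 8 h and 48 h in the fit there were 4342 rises and 7127 falls.

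**Figure D1:**
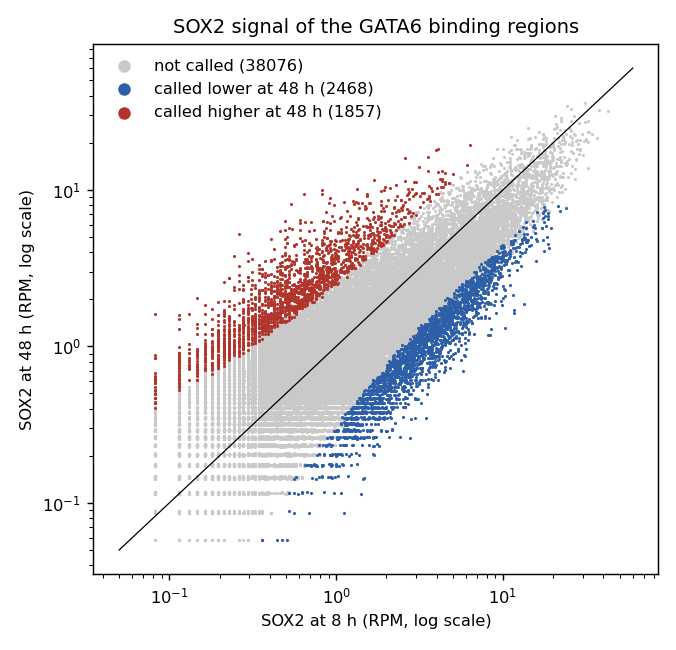
SOX2 signal of each GATA6 binding region at 8 h (horizontal axis) and 48 h (vertical axis), both in RPM on log scales and as the mean of 2 libraries, with the line of equal signal. The 1857 regions called higher start from a low signal at 8 h, and the 2468 called lower run in parallel below the line.

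The gains began near the floor. At the regions that rose, the median SOX2 signal was 0.524 RPM at 8 h, 1.03 at 16 h, 1.59 at 24 h and 2.19 at 48 h. Losses started from a higher signal, with medians of 3.21, 2.03, 1.21 and 0.947 RPM at the same times. The combined value moved the same way at each of the 3 steps in 1260 of the rises (67.9%) and 1418 of the falls (57.5%). These regions were called on the net change that the steps make up, and the share over all regions was not counted. No single step gave a call with limma, by the trend or by voom weights. By the trend, the counts at an unadjusted p under 0.05 were 2290 rises and 2144 falls from 8 h to 16 h, 1506 and 4422 from 16 h to 24 h, and 1847 and 1431 from 24 h to 48 h. By voom weights they were 2148 and 2145, 1183 and 3820, and 1640 and 1594. The spread at 16 h and 24 h, where the libraries differed most, enters these steps.

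SOX2 libraries from before Dox and from 96 h, which the calls did not use, differed from each other in the same direction. Before Dox the median was 0.683 RPM at the regions that rose and 2.54 RPM at those that fell. From there to 8 h both medians went the other way, to 0.524 and 3.21 RPM. After 96 h it was 3.33 RPM and 0.452 RPM. The signal at 96 h exceeded that before Dox in 97.3% of the rises and 1.18% of the falls, compared with 52.7% of all regions. From 48 h to 96 h the signal rose on in 73.6% of the rises, and the share over all regions was not counted. The median over all regions went from 0.849 to 0.815 RPM in that time.

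Most losses lay in regions that GATA6 itself left, and most gains in those it kept or reached late. The study sorts regions by GATA6 binding into early (bound fast and kept), transient (bound fast, then lost) and late. Transient regions made up 38.4% of all regions and 88.0% of the falls, and 2173 of their 16285 members (13.3%) fell against 73 that rose. Of the 11875 early regions 1033 (8.7%) rose and 258 (2.17%) fell. Of the 14243 late regions 751 (5.27%) rose and 37 (0.26%) fell. The median SOX2 signal at 8 h was 0.360 RPM in late regions and 1.44 RPM in both early and transient ones. Such a low start leaves late regions little room to fall, and its part in their share of falls was not tested. The median log2 change was -0.58 in transient regions, with a spread of 0.13, and 0.23 in late ones, also with 0.13. In early regions the median of 0.14 was within its spread of 0.19.

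Most gains lay in regions with SOX17. Regions in which SOX17 was called held 1712 (92.2%) of the 1857 rises while being 44.5% of all regions. In them 9.08% of regions rose and 1.52% fell, and in the 23542 regions without a SOX17 call 0.616% rose and 9.26% fell. The summed SOX2 signal shifted in the same direction in each library. Regions with SOX17 took 54.3% and 54.7% of the signal over all regions at 8 h, 57.9% and 62.7% at 16 h, 63.3% and 64.8% at 24 h, and 64.6% and 68.0% at 48 h. Both libraries of 48 h were above both of 8 h, and the libraries of 16 h lay between them.

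Regions held by pluripotency transcription factors (PTFs, here OCT4, SOX2 and ESRRB) before Dox split by SOX17. The PTF classes of the table rest in part on SOX2 peaks of these same libraries, so that their direction is not independent of the comparison, but the SOX17 classes use another antibody. Of the 4392 PTF regions without SOX17, 1192 (27.1%) fell and 3 rose. Of the 4449 with SOX17, 206 (4.63%) fell and 46 rose. The median in the first set was 3.53 and 4.03 RPM in the libraries of 8 h, 3.59 and 2.26 at 16 h, 2.14 and 1.25 at 24 h, and 1.89 and 1.80 at 48 h. In the second set it was 4.77 and 5.61 RPM at 8 h, 5.60 and 4.89 at 16 h, 4.55 and 3.06 at 24 h, and 4.01 and 4.50 at 48 h. In both sets the libraries of 48 h lay below those of 8 h, by a wider margin without SOX17. At 24 h library B was the lowest of all libraries in both sets.

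Ectopic regions, where PTFs appear only after Dox, were divided in the same manner. Of the 5517 with SOX17, 1381 (25.0%) rose and 18 fell, and the median went from 1.05 and 1.18 RPM at 8 h to 1.75 and 2.22 RPM at 48 h. Of the 1521 without SOX17, 47 (3.09%) rose and 19 fell, and the libraries overlapped, with 0.980 and 0.983 RPM at 8 h and 0.960 and 1.08 RPM at 48 h. Among the ectopic regions those reached late by GATA6 had the highest share of rises, 456 of 1435 (31.8%), and no fall. Their median at 8 h was 0.606 RPM, which leaves little room for a fall. Among the 26524 regions without PTFs, 380 (1.43%) rose and 1033 (3.89%) fell. These regions made up 62.6% of all regions and held 41.9% of the falls.

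**Figure D2:**
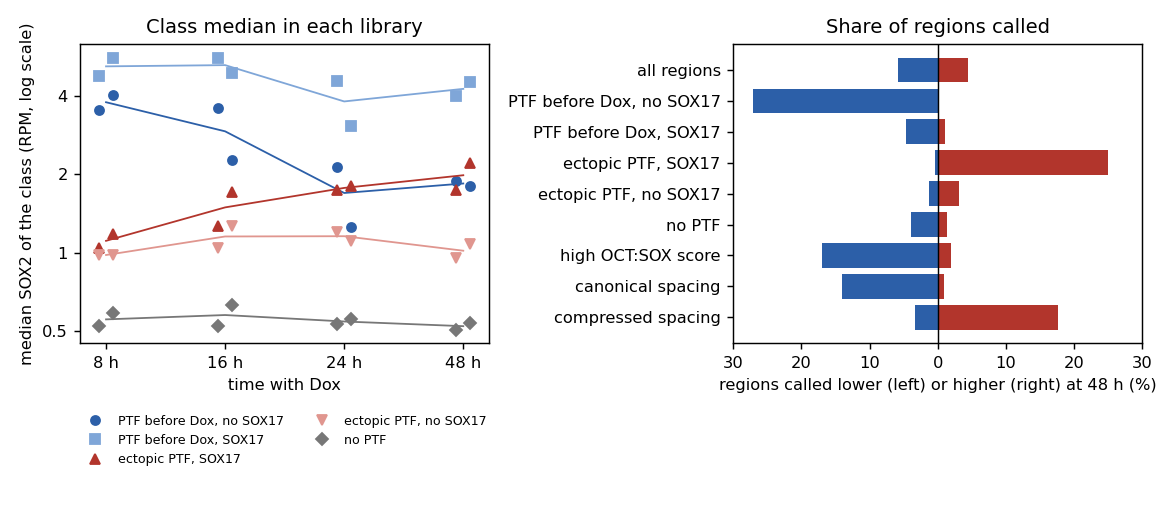
Left, median SOX2 signal (RPM, log scale) of each class in library A and library B of each time, with lines through their means; times are evenly spaced. Right, percentage of regions called lower or higher at 48 h, where PTF regions without SOX17 reach 27.1% lower and ectopic PTF regions with SOX17 reach 25.0% higher.

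Most regions that gained SOX2 had been closed. In undifferentiated cells 91.0% of the rises were of the closed accessibility class, compared with 61.3% of all regions. Of 26003 closed regions 1690 (6.5%) rose and 848 (3.26%) fell. In moderately accessible regions 1351 of 13248 (10.2%) fell and 111 rose, and in accessible ones 269 of 3152 (8.53%) fell and 56 rose. By histone state, the shares stand beside 4.38% rises and 5.82% falls over all regions. Naive chromatin gave the largest share of rises, 789 of 7631 (10.3%), and had 289 falls (3.79%). Facultative heterochromatin came next with 575 rises of 9475 (6.07%) and had 235 falls (2.48%). Falls were most frequent in active enhancers, 499 of 4730 (10.5%), and primed enhancers, 741 of 7146 (10.4%). Promoters had 61 rises (2.09%) and 48 falls (1.64%) in 2918 regions, both below the shares over all regions. Introns and intergenic DNA held 42.9% and 55.4% of the rises and 45.3% and 52.8% of the falls, near their 47.9% and 49.0% of all regions.

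The spacing of the composite element differed between regions that gained and lost SOX2. Letters were searched on both strands in the 200 bases centred on the GATA6 summit. The canonical form TTGTNATGC stood in 3.61% of falls and 0.323% of rises, compared with 1.50% of all regions. The compressed form TTGTATGC showed the reverse, with 3.12% of rises and 0.446% of falls, compared with 0.774% of all regions. Counted the other way, 89 of the 636 regions with the canonical form fell (14.0%) and 6 rose, and 58 of the 328 with the compressed form rose (17.7%) and 11 fell. Most regions of either kind of change held neither form.

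The medians of the libraries moved in opposite directions in the regions with either form. The compressed set had medians of 0.719 and 0.787 RPM at 8 h, 0.897 and 1.27 at 16 h, 1.20 and 1.25 at 24 h, and 1.02 and 1.26 at 48 h. For the canonical set the medians were 3.33 and 3.54 RPM at 8 h, 3.36 and 2.26 at 16 h, 2.19 and 1.25 at 24 h, and 2.03 and 1.80 at 48 h. The libraries of 8 h and 48 h did not overlap in either set. By SOX17 class, 56 of the 232 compressed regions with SOX17 rose (24.1%) and 2 of the 96 without it. Of the 430 canonical regions without SOX17, 88 fell (20.5%), and of the 206 with it 1 fell. By PTF class, 65 of the 431 canonical regions held by PTFs before Dox fell (15.1%), near the 15.8% of all such regions. Of the 157 canonical regions without PTFs 24 fell (15.3%), compared with 3.89% of all such regions. Of the 155 compressed ectopic regions 54 rose (34.8%), compared with 20.3% of all ectopic ones.

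Other letters differed by smaller ratios. The SOX core ACAAT, which is also found within other elements, stood in 62.6% of rises and 43.3% of falls, with 46.5% over all regions. The octamer ATGCAAAT, bound by POU proteins, stood in 6.40% of falls and 1.56% of rises, with 2.99% over all regions. The GATA core AGATAA was spread evenly, in 54.2% of rises, 52.2% of falls and 54.3% of all regions. The core of ESRRB, AAGGTCA, was in 4.85% of rises, 6.85% of falls and 7.03% of all regions. The authors' scores of the OCT4:SOX2 matrix pointed the same way as the canonical letters: in the class of high scores 482 of 2834 regions (17.0%) fell and 57 rose, while 230 of 12101 without a match (1.9%) fell.

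The 4 regions printed above with the compressed form behaved as follows. Nearest Arhgap29, SOX2 was 0.719 and 0.688 RPM at 8 h, 1.05 and 2.44 at 16 h, 3.93 and 6.13 at 24 h, and 5.59 and 6.96 at 48 h (log2 change 2.84 ± 0.40 SE, limma adjusted p = 0.00036). OCT4 there went from 1.08 to 14.2 RPM between 8 h and 48 h and SOX17 from 0.962 to 18.1 RPM. Nearest Jam3, a junctional adhesion molecule, SOX2 was 0.327 and 0.688 RPM at 8 h and 4.12 and 5.10 at 48 h. At all 4 the libraries of 8 h lay below those of 48 h, as in every one of the called rises from which they were chosen. At the canonical region nearest Dpp6, SOX2 was 9.08 and 10.5 RPM at 8 h, 3.66 and 2.99 at 16 h, 2.68 and 1.11 at 24 h, and 1.69 and 1.98 at 48 h, while OCT4 went from 11.0 to 2.09 RPM.

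OCT4, GATA6 and SOX17 signal is given as the mean over the libraries of a time with no spread of its own. At the called regions OCT4 and GATA6 moved the same way as SOX2, and SOX17 did so mainly at the rises. At the rises, the median OCT4 signal was 0.550 RPM at 8 h, 0.758 at 16 h, 1.99 at 24 h and 2.72 at 48 h. SOX17 was 0.559, 0.750, 2.84 and 4.46 RPM, and GATA6 0.860, 1.80, 2.92 and 4.10 RPM. The medians of OCT4 and SOX17 climbed most between 16 h and 24 h. From 8 h to 16 h those of ESRRB (0.549 to 0.818 RPM) and input (0.481 to 0.642 RPM) were also higher, and input went from 0.389 to 0.548 RPM at the regions without a call. At the falls, OCT4 went from 2.92 to 1.00 RPM between 8 h and 48 h, GATA6 from 4.10 to 0.789 RPM and SOX17 from 0.903 to 0.671 RPM. At the regions without a call SOX17 went from 0.522 to 0.946 RPM and OCT4 from 0.695 to 0.860 RPM. SOX2 there went from 0.818 to 0.794 RPM. ESRRB, an orphan nuclear receptor of pluripotent cells, went from 1.21 to 0.499 RPM at the falls and from 0.549 to 0.795 RPM at the rises.

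**Figure D3:**
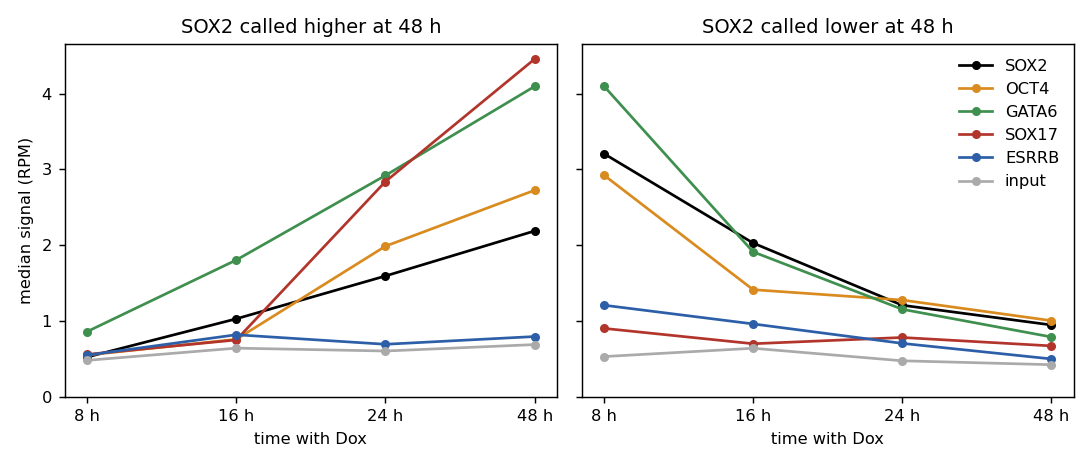
Median signal (RPM, mean of the libraries of a time) of 6 assays at the 1857 regions where SOX2 was called higher and the 2468 where it was called lower at 48 h; times are evenly spaced. On the left SOX17 and OCT4 climb between 16 h and 24 h, and on the right GATA6, SOX2 and OCT4 decline together.

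Across all regions the log2 change of SOX2 correlated with that of GATA6 (Pearson r = 0.83, Spearman rho = 0.81), OCT4 (0.81 and 0.77), SOX17 (0.63 and 0.58), ESRRB (0.54 and 0.52) and input (0.33 and 0.31), over 42403 regions that share libraries and region width. Input, chromatin sequenced without antibody, had a median of 0.481 RPM at 8 h and 0.689 RPM at 48 h at the rises, and 0.531 and 0.423 RPM at the falls. Its median log2 change was 0.35 at the rises and -0.20 at the falls, where that of SOX2 was 1.59 and -1.50 on the combined values. The part of input, and of SOX17 protein, in the SOX2 signal was not tested.

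The 8 largest rises were all ectopic PTF regions with SOX17, a class of 13.0% of all regions that rests in part on SOX2 peaks of these libraries. Of the 8, 7 were closed before Dox, compared with 61.3% of all regions. The largest, in an intron of the phosphodiesterase gene Pde5a and 79.2 kb from the start of Fabp2, a fatty acid-binding protein (chr3:122815472-122816343), had 0.327 and 0.197 RPM at 8 h, 0.448 and 1.18 at 16 h, 2.41 and 4.73 at 24 h, and 4.12 and 6.30 at 48 h. The log2 change was 3.55 ± 0.44 (SE, limma adjusted p = 0.00011). In an intron of Prkcz, an atypical protein kinase C (chr4:155317216-155318731), SOX2 went from 0.653 and 0.983 RPM at 8 h to 8.47 and 11.6 RPM at 48 h. In an intron of Dmc1, a meiotic recombinase, nearest Ddx17 (chr15:79568482-79569691), it went from 0.588 and 0.688 RPM to 7.51 and 11.3 RPM. The other five lay in introns of Tfec, Opa1 and Xpo7 and in intergenic DNA nearest Anapc10 and Xrcc2, with log2 changes between 3.11 and 3.55.

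The 8 largest falls were all transient GATA6 regions (38.4% of all regions) without SOX17 (55.5% of all regions). Of the 8, 7 held PTFs before Dox, compared with 20.8% of all regions, and the PTF classes rest in part on SOX2 peaks. In intergenic DNA nearest Tle3, a Groucho corepressor (chr9:61573479-61574718), SOX2 was 9.74 and 10.7 RPM at 8 h, 5.75 and 3.17 at 16 h, 4.37 and 1.25 at 24 h, and 1.07 and 1.56 at 48 h. The log2 change was -2.80 ± 0.44 (SE, limma adjusted p = 0.00075). In an exon of Trp53bp1, a DNA damage response gene (chr2:121270200-121270949), it was 13.2 and 13.4 RPM at 8 h, 5.31 and 1.81 at 16 h, 3.03 and 1.81 at 24 h, and 2.09 and 1.62 at 48 h. In an intron of Plagl1, an imprinted zinc finger gene (chr10:13102121-13103386), it went from 11.2 and 12.1 RPM at 8 h to 1.81 and 1.44 RPM at 48 h. Those nearest Igf2bp2, Anapc16, Itpk1 and Pknox2 had log2 changes between -2.73 and -2.61.

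Some regions around genes of the PrE gained SOX2, and most had no call. Of 213 regions within 100 kb of 21 listed PrE genes, 38 rose (17.8%, compared with 4.38% of all regions) and 1 fell, with a median log2 change of 0.54. Around Foxa2, a forkhead factor of endoderm, 11 of 27 regions rose and 1 fell, and around Gata4, the GATA factor that acts beside GATA6, 5 of 15 rose. The strongest region of each gene rose in 5 of the 21. Nearest Sox17 (chr1:4536608-4538990) SOX2 was 2.48 and 1.38 RPM at 8 h, 3.36 and 7.15 at 16 h, 8.43 and 7.80 at 24 h, and 7.56 and 12.5 at 48 h (log2 change 2.27 ± 0.41 SE, limma adjusted p = 0.0019). Nearest Cubn, the endocytic receptor cubilin of endoderm (chr2:13495414-13498310), it was 4.05 and 3.93 RPM at 8 h, 6.43 and 12.8 at 16 h, 13.7 and 11.6 at 24 h, and 13.7 and 22.6 at 48 h. In both regions the libraries of 16 h already exceeded those of 8 h.

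The strongest regions nearest Foxa2 (log2 change 1.82 ± 0.41 SE, limma adjusted p = 0.0072), Gata4 (1.28 ± 0.39, 0.036) and the laminin gene Lamb1 (1.22 ± 0.40, 0.049) rose as well. At those nearest the basement membrane genes Lamc1 and Lama1 SOX2 was already high at 8 h, 30.0 and 31.8 RPM and 9.02 and 11.9 RPM, and at 48 h it was 29.2 and 42.4 RPM and 10.8 and 13.7 RPM, without a call. Nearest Gata6 itself the values were 4.12 and 5.02 RPM at 8 h and 5.53 and 6.00 RPM at 48 h, with no call either. Hnf4a had no region by the rule. The call nearest Lamb1 was lost with the pseudocount 10 times larger (adjusted p = 0.061) or smaller (0.055) and with 1 read subtracted per library (0.062).

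The shares of called regions around pluripotency genes were near those of all regions. Of 156 regions around 19 genes, 7 rose (4.49%, compared with 4.38% of all regions) and 6 fell (3.85%, compared with 5.82% of all regions), and the median log2 change was -0.12. The strongest region of Tdgf1, the Nodal co-receptor (chr9:110946813-110948450), fell. It had 16.3 and 18.5 RPM at 8 h, 16.4 and 9.50 at 16 h, 8.43 and 4.87 at 24 h, and 6.49 and 7.80 at 48 h (log2 change -1.26 ± 0.39 SE, limma adjusted p = 0.040). With 1 read subtracted per library its adjusted p was 0.054. At the strongest regions of the other genes there was no fall past the test. The median log2 change of the strongest regions was -0.40 on the combined values, with a range from -1.26 to 2.55. SOX2 was lower without a call nearest Klf4 (log2 change -0.91 ± 0.41 SE), Prdm14 (-0.89 ± 0.41) and Sox2 itself (-0.69 ± 0.40). It was higher without a call nearest Klf5, Tbx3 and Sall4, with log2 changes from 0.16 to 0.33. Nearest Nanog, a homeobox factor of the naive state, SOX2 was 9.08 and 10.6 RPM at 8 h, 10.6 and 5.61 at 16 h, 7.18 and 2.78 at 24 h, and 10.1 and 9.42 at 48 h. The lowest value was that of 24 h library B, the libraries of 16 h and 24 h overlapped, and those of 48 h overlapped those of 8 h.

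Nearest Klf2, a zinc finger factor, SOX2 was 21.3 and 24.5 RPM at 8 h, 18.6 and 9.68 at 16 h, 7.23 and 3.62 at 24 h, and 14.4 and 11.3 at 48 h, so that both libraries of 24 h were below all others. Its log2 change of -0.83 ± 0.41 (SE) from 8 h to 48 h did not pass limma (adjusted p = 0.20), and passed it with only the libraries of 8 h and 48 h in the fit (adjusted p = 0.00062). At Pou5f1, which encodes OCT4, the values were 10.8 and 13.9 RPM at 8 h and 10.6 and 11.9 RPM at 48 h. The strongest regions of the zinc finger gene Sall4, 24.8 and 26.4 RPM at 8 h and 27.4 and 38.0 RPM at 48 h, and of Tbx3, a T-box factor, 24.8 and 28.5 RPM and 27.4 and 32.3 RPM, were among those with the most SOX2 at both times.

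The rise called in an exon of Nr5a2, an orphan nuclear receptor (chr1:136940442-136941033), rests on a single library. It had 2.42 and 2.75 RPM at 8 h, and at 48 h 28.7 RPM (509 reads) in library A and 3.36 RPM (56 reads) in library B. The log2 change of 1.87 ± 0.60 (SE, limma adjusted p = 0.047) was 0.36 without that library (adjusted p = 0.79). The call was also lost with the smaller pseudocount (0.077), with a mean of at least 1 RPM (0.075), when centred on background regions (0.059) and with 1 read subtracted (0.078). OCT4 there was 2.41 RPM at 8 h and 3.04 RPM at 48 h, and SOX2 at 96 h was 17.5 RPM.

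Genes of formative pluripotency, the state after the naive one, had few regions. Of 16 regions around 5 genes, 5 fell (31.2%, compared with 5.82% of all regions) and 1 rose (6.25%, compared with 4.38%). Nearest Lef1, a Wnt effector (chr3:131102256-131102822), SOX2 was 5.88 and 6.10 RPM at 8 h, 3.44 and 1.45 at 16 h, 2.01 and 0.974 at 24 h, and 1.13 and 1.68 at 48 h (log2 change -1.97 ± 0.42 SE, limma adjusted p = 0.0055). In an intron of the growth factor gene Fgf5 (chr5:98255656-98256203) it was 2.16 and 3.93 RPM at 8 h and 0.677 and 0.840 RPM at 48 h (-1.71 ± 0.41, adjusted p = 0.011). Both are transient GATA6 regions without SOX17. The strongest regions of the other genes had no call. Their log2 changes were -0.57 ± 0.42 SE nearest Otx2 (limma adjusted p = 0.42), -0.60 ± 0.37 nearest Pou3f1 (0.32) and 0.37 ± 0.42 nearest Dnmt3b (0.62). Over the 25 called regions among those named here from the largest rises onward, 8, 14, 6 and 15 lost the call without 8 h A, 8 h B, 48 h A and 48 h B. The calls nearest Tdgf1, Gata4, Lamb1 and Lef1 were lost in each of these 4 fits.

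**Figure D4:**
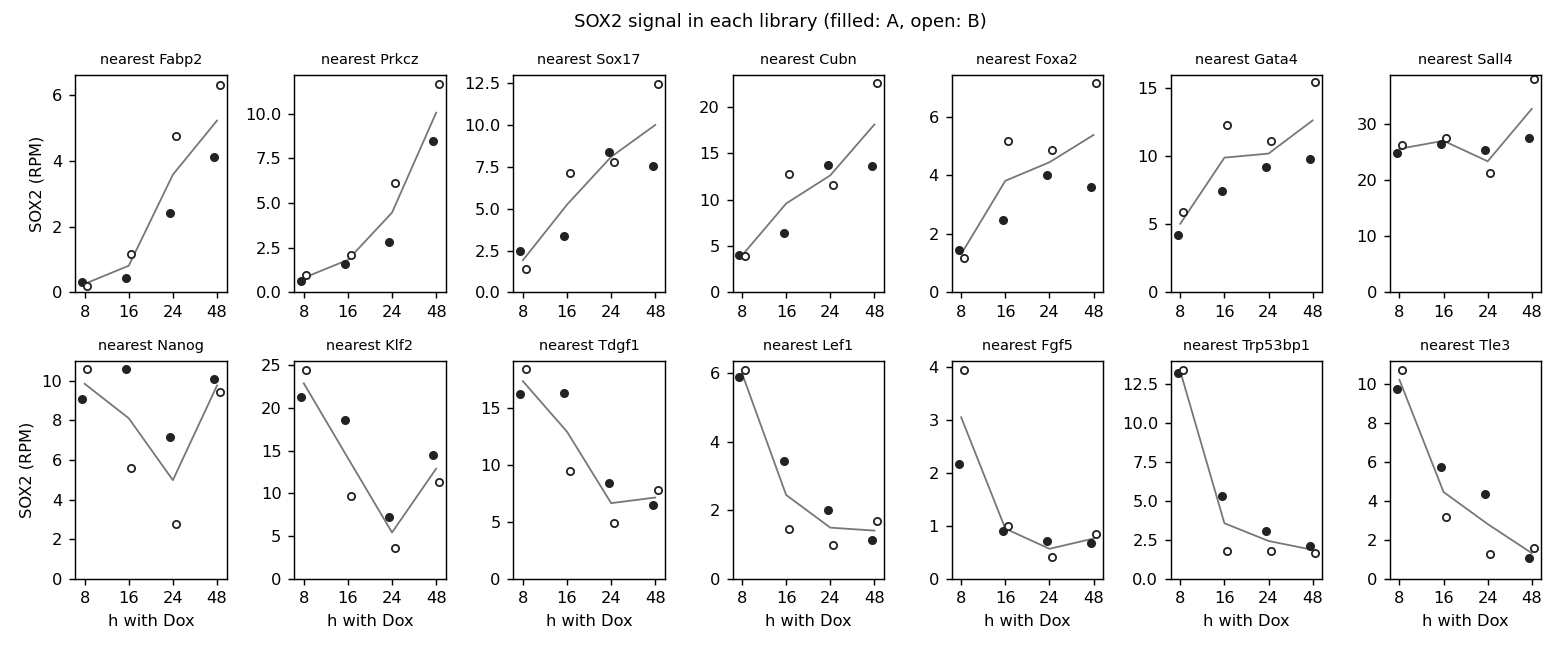
SOX2 signal (RPM, linear scale from 0) in library A (filled) and library B (open) at 14 regions, named by their nearest gene, with a line through the mean and times evenly spaced. The regions nearest Sox17, Cubn and Fabp2 climb from 8 h to 48 h, those nearest Lef1 and Tle3 decline, and those nearest Nanog and Klf2 have their lowest mean at 24 h.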

How the data were processed

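The authors trimmed reads with cutadapt, aligned them to mm10 with bowtie2, filtered by mapping quality, used molecular identifiers to drop duplicates and counted reads on each region with bamsignals. The deposited values are RPM, which the authors scaled to library size and averaged over 2 libraries, and the authors also deposited the FIMO score of the best motif match and classes of regions. Each SOX2 value was split into whole reads of both libraries, at rounding tolerance. Changes are differences of log2(RPM + 0.196), the pseudocount being percentile 5 of non-zero SOX2 values. On this scale the change of low regions is understated. The test was limma 3.58.1 in R 4.3.3 with a mean-variance trend, all 8 libraries in one fit, and an adjusted p under 0.05. It was also run on simulated reads with the same spread at each time. That run does not cover the wider spread at 16 h and 24 h. The p-values measure the spread between libraries, which for most conditions came from independent chromatin preparations.

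Named regions were the 8 largest rises and falls of at least 2 RPM with non-overlapping libraries, the region of highest SOX2 for each listed gene within 100 kb of its start, and regions chosen after their values were seen where stated. Gene starts are those of GENCODE M21, and locations those of the region's midpoint. Regions, lists and patterns were chosen with earlier results of these data known. Alternatives were other pseudocounts, filters, centrings, input subtraction, voom and leaving out each library. The 53 other columns of the table, among them accessibility, histone marks and the authors' Oct4 siRNA comparison, were not used. Tools were Python 3.11.15, NumPy 2.4.6, pandas 2.3.3, pysam 0.24.0 and matplotlib 3.10.9. One of the named regions is not reported here.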

Additional observations from a re-analysis of the deposited data

How the results depend on the processing

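No paired analysis was possible because the libraries recovered from the combined values carry no replicate number. Called rises ranged from 31 to 2597 and called falls from 24 to 3970 when single libraries were left out, the higher ends without a 24 h library. Leaving out 16 h library A, 16 h library B, 24 h library A or 24 h library B, chosen after seeing the data, gave 3720, 3737, 3965 and 3970 falls. With only the libraries of 8 h and 48 h there were 4342 rises and 7127 falls. Subtracting 1 read per library, also chosen after seeing the data, gave 1635 rises and 1654 falls, and voom weights gave 1971 and 3091.

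On the combined values, 2-fold rises numbered 348 with the pseudocount 10 times larger, 5425 with it 10 times smaller, 6304 after input subtraction and 1260 for the mean of 8 h and 16 h against that of 24 h and 48 h. The 2-fold falls numbered 648 with the larger pseudocount, 8648 after input subtraction and 2736 for the means. In regions of at least 1 RPM the median log2 change was -0.29 over all regions, 0.59 in late, -0.77 in transient, -0.40 in PTF-free and -0.76 in SOX17-free ones. With the larger pseudocount it was 0.057 in late, -0.24 in transient, 0.24 in ectopic, -0.41 in PTF regions before Dox and -0.092 in SOX17-free ones, which had -0.40 with the smaller one. After input subtraction it was -0.82 in transient and -0.45 in SOX17-free regions. No class median turned its direction past its spread. Among named regions without a call, leaving out single libraries of 8 h or 48 h gave log2 changes from -0.30 to 0.052 nearest Pou5f1, -0.12 to 0.10 nearest Nanog and -0.078 to 0.45 nearest Lamc1, on both sides of 0. Low regions rest on few reads, which limits the size of their change.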

Other observations

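A minority of gains lay outside SOX17 regions. Of the 145 rises without a SOX17 call, 95 were in regions without PTFs, 47 in ectopic ones and 3 in PTF regions of undifferentiated cells. Conversely 46 PTF regions with SOX17 rose, and 37 ectopic regions fell. By the authors' motif scores, 6.66% of regions of the high SOX17 class rose and 6.08% fell, compared with 2.2% and 4.55% of those without a match. GATA6 scores did not order the gains, with 3.84% of the high class rising, 4.92% of the middle, 4.71% of the low and 3.1% of those without a match.

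The libraries of 16 h stood at different points between 8 h and 24 h. Library A of 16 h correlated with those of 8 h at 0.93 and 0.92, and library B most with 24 h library A, at 0.91. Regions held by PTFs before Dox took 62.0% and 62.1% of the summed SOX2 signal at 8 h, 62.4% and 54.0% at 16 h, 53.3% and 41.6% at 24 h, and 52.4% and 50.0% at 48 h. Library B of 24 h, the shallowest, thus had the lowest share, and its correlation with the other libraries was between 0.66 and 0.82.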
